A study of Mus musculus with 4 samples.

Results

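Runx2 binding was described at 8 mouse genes that encode antagonists of bone morphogenetic protein (BMP) signalling, Nog, Chrd, Twsg1, Grem1, Fst, Fstl3, Fstl1 and Bambi. Every Runx2 peak that overlapped by at least 1 bp the body of a member gene, widened by 50 kb on each side, was included. This gave 23 of the 25457 peaks of day 0, 63 of the 60596 peaks of day 9 and 38 of the 40330 peaks of day 28. Overlapping peaks of different days were merged, and the 8 genes then held 63 of the 67703 merged regions.

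Chromatin was taken from MC3T3-E1 subclone 4 cells, a clonal preosteoblast line of C57BL/6 mouse origin, and immunoprecipitated with the M70 antibody against Runx2. Proliferating cells were collected on day 0, matrix-depositing cells on day 9 and mineralizing cells on day 28, the later stages after induction with ascorbic acid and beta-glycerophosphate. For each day, 2 biological replicate libraries were pooled before peaks were called against input DNA of day 9 cells. Each day therefore has 1 list, without replicate error, and no test was made between days. The lists hold no read counts, so the depth behind a peak is unknown from them. The paper does report raw reads per stage, with the most for proliferating cells and the fewest for mineralizing cells. How this depth bears on the numbers of peaks was not tested. Cells of all 3 days are descendants of the same clone, and the input of day 9 served every stage.

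BMPs are secreted ligands that bind paired type I and type II receptors, which phosphorylate Smad proteins that enter the nucleus and regulate target genes. In the osteoblast lineage they drive commitment and matrix formation. Antagonists restrain them either outside the cell, by holding the ligand away from its receptors, or at the membrane, as a receptor that cannot signal. Runx2 is the transcription factor required for osteoblast formation. A Runx2 peak marks occupancy near a gene and does not measure expression of that gene.

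The sequences below are the 101 bases around the centres of peaks far from start sites that held the Runx2 core TGTGGT. They are shown because, at the members, the core was seen at the peak centre mainly in such peaks. All are the plus strand of mm9 (NCBIM37), 5′ to 3′, and capitals mark TGTGGT or its reverse complement ACCACA.
Nog, downstream, day 28 centre, chr11:89156972-89157072: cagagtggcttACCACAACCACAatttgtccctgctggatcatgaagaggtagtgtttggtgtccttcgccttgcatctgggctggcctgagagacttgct
Fst, upstream, day 9 centre, chr13:115253094-115253194: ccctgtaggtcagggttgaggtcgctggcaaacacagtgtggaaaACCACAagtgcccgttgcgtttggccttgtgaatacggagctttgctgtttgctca
Fstl1, intron, day 9 centre, chr16:37801276-37801376: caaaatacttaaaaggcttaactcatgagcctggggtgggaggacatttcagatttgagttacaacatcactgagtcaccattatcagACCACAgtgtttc
Fstl1, upstream, day 9 centre, chr16:37758707-37758807: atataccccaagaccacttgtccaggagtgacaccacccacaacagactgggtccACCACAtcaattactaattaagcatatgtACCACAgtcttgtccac
Grem1, upstream, day 28 centre, chr2:113605293-113605393: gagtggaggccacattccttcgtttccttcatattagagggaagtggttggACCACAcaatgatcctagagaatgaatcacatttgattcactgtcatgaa

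The next 3 windows had no TGTGGT on either strand although each lies in a region occupied at all 3 days. The first pair lie at start sites and are rich in G and C, and the last is the region downstream of Fst. They are again plus-strand mm9 sequence.
Nog, start site, day 28 centre, chr11:89164210-89164310: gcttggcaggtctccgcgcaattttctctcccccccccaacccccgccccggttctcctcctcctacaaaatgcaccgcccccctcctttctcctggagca
Twsg1, start site, day 28 centre, chr17:66300180-66300280: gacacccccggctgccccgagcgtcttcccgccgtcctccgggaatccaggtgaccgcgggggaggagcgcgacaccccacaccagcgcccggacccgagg
Fst, downstream, day 0 centre, chr13:115237367-115237467: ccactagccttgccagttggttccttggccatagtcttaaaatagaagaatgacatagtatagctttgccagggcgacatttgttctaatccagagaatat

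The last windows are repeats of the dinucleotides CA and TG, and both belong to day 9 peaks. At least 40 of the central 101 bases were such repeats in 3 of the 63 day 9 peaks of the members and in 7.18% of all day 9 peaks. In the first, the core occurs 6 times inside the repeat and is in capitals, and in the second it does not occur.
Fstl1, before Lrrc58, day 9 centre, chr16:37865603-37865703: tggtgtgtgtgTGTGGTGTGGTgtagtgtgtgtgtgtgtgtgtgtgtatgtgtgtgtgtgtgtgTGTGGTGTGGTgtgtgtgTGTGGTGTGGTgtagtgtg
Grem1, in Scg5, day 9 centre, chr2:113639755-113639855: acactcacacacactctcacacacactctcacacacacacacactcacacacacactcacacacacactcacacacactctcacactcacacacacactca

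Nog encodes noggin, a secreted protein that covers the receptor-binding faces of BMPs. The gene lies at 11:89161952-89163873 on the minus strand of mm9, with no other protein-coding start site within its window. It had 1 peak on day 0, 5 on day 9 and 2 on day 28, in 4 regions. The region over its start site (11:89163085-89165217) had peaks at all 3 days, but only the day 28 peak covered the start site itself. The highest peaks of days 0 and 9 were centred upstream of it, at -1053 bp and -1115 bp, and the day 28 peak at -387 bp. The score of a peak is 10 times the negative log10 of its MACS p-value and depends on depth, so each is read by its percentile within the list of its own day. In this Nog region the highest peak scored 140.4 on day 0, 179.6 on day 9 and 584.6 on day 28. This placed it at the 18.8th, 35.0th and 65.6th percentile. Counted from the top of each list, it stood 20682nd, 39360th and 13856th, so the order of days 0 and 9 depends on the length of the lists. The day 28 peak was 1915 bp wide, against 565 bp at day 0, so the values of the days do not describe the same stretch.

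The strongest Nog region was not the start site. It lay 6.85 kb downstream of it, beyond the end of this short gene, at 11:89156661-89157384. It had no peak on day 0, scored 813.5 on day 9 (77.0th percentile) and 1295 on day 28 (83.5th percentile). Both peaks held 2 copies of the core, which stand close together in the Nog sequence printed above. They fell within 50 bp of the centre at day 28 and outside that window at day 9. The other Nog regions were day 9 peaks of low rank, in the coding sequence (4.05th percentile) and in a CA repeat 41.5 kb upstream (7.30th percentile).

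Chrd encodes chordin, a secreted protein that traps BMPs until it is cleaved. The gene lies at 16:20733200-20742457 on the plus strand, among the start sites of Clcn2, Fam131a, Polr2h and Thpo. It had 2 peaks on day 0, 11 on day 9 and 7 on day 28, in 9 regions. The top peaks of all 9 regions had their centres nearer to the start site of another gene. The start-site region (16:20732743-20734752) overlapped the promoters of both Chrd and Thpo, which encodes the platelet growth factor thrombopoietin. It had no peak at day 0. At day 9 it held a peak of score 666.5 centred 273 bp past the Chrd start site (73.2nd percentile) and a higher peak of 1246.1 centred by Thpo (84.2nd percentile). At day 28 a single peak of score 803.8 lay there (73.2nd percentile).

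Both day 0 peaks of the Chrd window lay upstream and were occupied at all 3 days. The region 31.2 kb upstream (16:20701247-20703091), at the 3′ end of Fam131a, scored 665.6 at day 0 (82.0th percentile) and 3100 at days 9 and 28. The score 3100 is shared by many peaks of a list, and they have no order among themselves. It stands at percentile 97.4 at day 9 and 97.8 at day 28. The region between Clcn2, a chloride channel gene, and Polr2h, a gene for an RNA polymerase II subunit, scored 518.7, 1439.3 and 1643.5 at days 0, 9 and 28. At Chrd the high ranks were therefore at the neighbours.

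Twsg1 encodes twisted gastrulation, a secreted protein that binds BMPs together with chordin and can either strengthen or relieve the block. It lies at 17:66272406-66300527 on the minus strand. It had 2 peaks on day 0, 11 on day 9 and 4 on day 28, in 10 regions. Its start-site region (17:66299575-66300971) was occupied at all 3 days and scored 331.8 on day 0, 2467.3 on day 9 and 1682.2 on day 28. These are percentiles 58.1, 93.2 and 88.2, so the region ranked among the top of the lists from day 9 on. Of its other regions, 6 had a peak at day 9 only and 2 at days 9 and 28.

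Grem1 encodes gremlin, a secreted antagonist of the DAN family. It lies at 2:113586321-113598803 on the minus strand, between Fmn1, a formin gene, and Scg5, which encodes a secretory granule chaperone. It had 3 peaks on day 0, 3 on day 9 and 5 on day 28, in 6 regions, and was the only member with most peaks at day 28 in the lists as deposited. The region at the start site (2:113596921-113599178) had peaks at all 3 days. Its highest peaks scored 213.0 on day 0, 379.7 on day 9 and 134.6 on day 28, at percentiles 39.0, 60.6 and 15.5. The day 9 peak lay 818 bp past the start site, in the intron, and did not reach the promoter, defined here as 1000 bp before to 150 bp after a start site. The day 28 peak that did reach it scored 118.0 (8.96th percentile).

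The highest Grem1 rank was at day 0, in the region 2:113553448-113554073, 45.0 kb downstream in the 3′ UTR of Fmn1. It scored 601.5 on day 0 (79.2nd percentile), had no peak on day 9, and scored 304.8 on day 28 (47.4th percentile). The core TGTGGT occurred 2 times in each of these peaks and within 50 bp of the centre at day 28. Upstream of Grem1, a day 0 peak (percentile 9.51) and a day 28 peak (14.9th percentile) stood next to each other without overlap, 7.48 kb and 6.54 kb from the start site. The day 28 peak is the printed Grem1 sequence with the core.

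Fst encodes follistatin, which binds activins with high affinity and also some BMPs. It lies at 13:115242470-115249159 on the minus strand, with no other protein-coding start site in its window. It had 4 peaks on day 0, 6 on day 9 and 5 on day 28, in 5 regions. Of these, 4 were occupied at all 3 days and the other, in an intron, at days 9 and 28. No Fst region belonged to a single day. The start-site region (13:115248404-115249627) scored 192.1, 1003.8 and 734.3 at days 0, 9 and 28, at percentiles 34.1, 80.6 and 71.2.

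Fst was flanked by regions that ranked higher at day 0 than later, by percentile and by rank from the top of the list. The region 4.04 kb upstream (13:115252799-115253600) scored 1051.1 on day 0, 395.8 on day 9 and 158.8 on day 28. Its percentiles were 91.5, 61.6 and 22.9, the opposite order to that of the start site between days 0 and 9. The region 11.7 kb from the start site (13:115236933-115237908), past the end of the gene, scored 1040.2, 1244.2 and 853.5, at percentiles 91.4, 84.2 and 74.6. At day 0 both stood above the start site by over 50 percentile points. The upstream peaks of all 3 days held 1 copy of the core, which fell within 50 bp of the centre at days 9 and 28, while the downstream peaks held none. The region 29.5 kb upstream was of lower rank, at percentiles 11.1, 57.0 and 28.9.

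Fstl3 encodes a follistatin-like protein that binds activins and myostatin. It lies at 10:79240017-79245375 on the plus strand, in a gene-dense stretch with 6 other genes whose start sites fall in the window. It had 4 peaks on day 0, 16 on day 9 and 7 on day 28, in 15 regions, the most of the 8 genes at day 9. It was also the only member without a peak over its promoter on any day. The nearest region lay in its intron, 984 bp past the start site (10:79240638-79241369). It scored 274.9 at day 9 and 349.9 at day 28, at percentiles 51.2 and 51.6, and had no peak at day 0.

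The other 14 regions were nearer to the start sites of neighbours. The highest rank was at the start site of Rnf126, a ubiquitin ligase gene, 10.3 kb upstream (10:79228632-79230621), with scores of 428.7, 2015.9 and 1961.3 and percentiles of 67.8, 91.0 and 90.6. The further regions of all 3 days lay at Polrmt, the mitochondrial RNA polymerase gene, and at Palm, which encodes paralemmin. At day 9 alone, 9 of the 15 regions had a peak. These day 9 peaks lay between the 1.87th and 61.8th percentile.

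Fstl1 encodes a secreted glycoprotein of the follistatin and SPARC group that can bind BMPs. It is the longest member (16:37776959-37836600, plus strand). It had 5 peaks on day 0, 9 on day 9 and 7 on day 28, in 11 regions. The start-site region (16:37776707-37777811) had no peak on day 0 and scored 205.9 on day 9 and 534.5 on day 28, at percentiles 40.9 and 63.3. The day 9 peak was centred 412 bp past the start site and reached only the end of the promoter. The gene body held 2 regions of all 3 days. The intronic region 24.6 kb past the start site (16:37800849-37802361) scored 1617.5, 1305.3 and 870.4, at percentiles 96.2, 84.9 and 75. Its day 0 peak was the highest-ranking of the 23 peaks of that day. The intronic region at 13.6 kb scored 470.4, 146.5 and 192.4, at percentiles 71.2, 25.3 and 31.0. As at the 2 regions beside Fst, these ranks were highest at day 0 by either measure.

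Past the end of Fstl1, the start site of Lrrc58 was occupied at all 3 days, with scores of 780.7, 2926.1 and 3100 and percentiles of 86.0, 94.8 and 97.8. A region 2822 bp before that start site (16:37865198-37866168) scored 2369.9 at day 9, at the 92.8th percentile. At day 28 it scored 222.4, at the 36.6th percentile, and it had no peak at day 0. It is a TG repeat with 46 copies of TGTGGT in either peak, and part of it is printed above.

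Bambi encodes a membrane protein that resembles a type I receptor but lacks the kinase domain, and so blocks the receptor complex. It lies at 18:3507955-3516402 on the plus strand, with no other protein-coding start site in the window. It had 2 peaks on day 0, 2 on day 9 and 1 on day 28, the fewest of the 8 genes at days 9 and 28, in 3 regions. Its start-site region (18:3507025-3508510) was the highest-ranking of all the members' own start sites on each day. It scored 755.7 on day 0, 3100 on day 9 and 2406.4 on day 28, at percentiles 85.2, 97.4 and 93.4. The others were a day 0 peak 32.5 kb away (23.3rd percentile) and a day 9 peak 34.7 kb away (10.8th percentile).

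**Figure D1:**
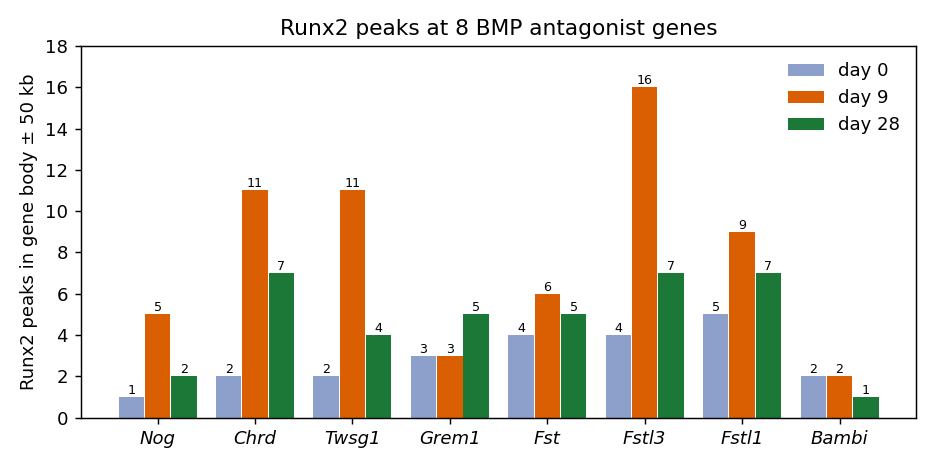
Bars give the number of Runx2 peaks in the gene body ± 50 kb of each gene at day 0, day 9 and day 28, each day being 1 pooled list without error. Day 9 has the tallest bar at 6 of the 8 genes, with 16 peaks at Fstl3, while Grem1 has most at day 28 and Bambi has 2 peaks at both day 0 and day 9. With lists of equal length, day 9 has most at only 2 genes, Chrd and Fstl3.

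Each of the 8 genes had at least 1 peak on each day. Among 22372 protein-coding genes, 73.8% had a peak within 50 kb on day 0, 83.2% on day 9 and 78.3% on day 28, so having a peak is common. The members had a median of 2.5 peaks on day 0, 7.5 on day 9 and 5 on day 28. Across all genes the medians were 2, 5 and 3, and the middle 50% of genes reached from 0 to 4, from 1 to 10 and from 1 to 6 peaks. Per 100 kb of window the members' medians were 2.26, 5.63 and 4.42, against 1.63, 3.52 and 2.42 over all genes. The number at the members was 2.74 times as large at day 9 as at day 0 and 0.603 times as large at day 28 as at day 9. The whole lists changed by 2.38 and 0.666 times. When each list was limited to its 25457 highest peaks, the length of the day 0 list, the order at single genes was different. Day 9 then had most peaks at Chrd and Fstl3, day 0 at Grem1, Fst, Bambi and Fstl1, and day 28 at Nog, while Twsg1 had 3 at both day 9 and day 28.

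The genes were spread over the range of all genes. At day 9, 90.1% of genes had fewer peaks than Fstl3 and 78.3% fewer than Chrd and Twsg1. The value was 70.6% for Fstl1, 54.8% for Fst, 48.3% for Nog, 33.6% for Grem1 and 25.5% for Bambi. Per length of window Fstl3 stood above 94.8% of genes and Bambi above 33.6%.

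**Figure D2:**
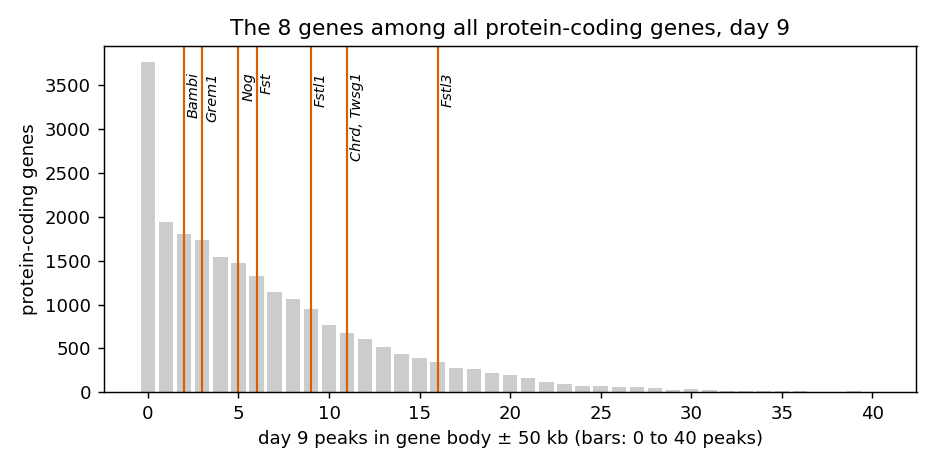
Grey bars give the number of protein-coding genes (vertical axis) with 0 to 40 day 9 peaks in the gene body ± 50 kb (horizontal axis), and vertical lines mark the 8 genes. The 41 genes with over 40 peaks are not drawn, and the members reach from 2 peaks at Bambi to 16 at Fstl3.

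A peak overlapped the promoter of 5 members on day 0, 6 on day 9 and 7 on day 28. Some of these peaks reached only the edge of the promoter. The day 9 peak of Fstl1 was centred 412 bp past the start site, and that of Nog at -1115 bp. With the peak centre inside the promoter, the numbers were 2, 3 and 4 members. Of all protein-coding genes, 42.7%, 51.6% and 50.1% had a promoter peak on these days. Chrd and Fstl1 lacked a promoter peak at day 0, Grem1 lacked it at day 9, and Fstl3 lacked it throughout. Nog, Fst, Bambi and Twsg1 had a promoter peak at all 3 days, as did 41.4% of all genes. The start-site regions did not share an order over the days. Of the 5 with a peak at all 3 days, 4 had their highest percentile at day 9 (Bambi, Twsg1, Fst and Grem1), but percentiles belong to lists of different lengths. Counted from the top of each list, 2 of the 5 stood highest at day 9, Bambi and Twsg1. Fst then stood 16780th, 11765th and 11623rd, with little between days 9 and 28, and Grem1 stood 15528th, 23893rd and 34086th, highest at day 0. The Grem1 peaks behind the day 9 and day 28 values lay in the intron and did not reach its promoter. Nog and Fstl1 stood highest at day 28 by either measure. At Chrd the peak over its own promoter was at percentile 73.2 on both later days.

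**Figure D3:**
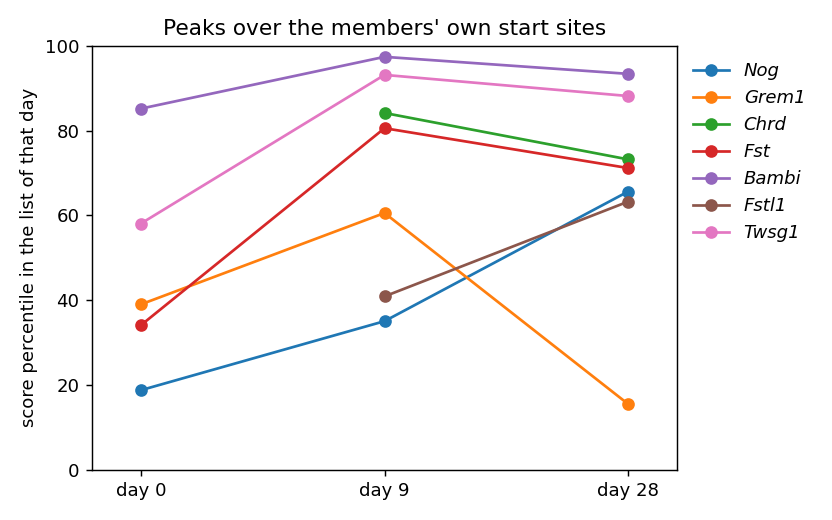
Points give the percentile of the highest peak of the region over each gene's own promoter within the list of each day, and lines join the days with a peak. Bambi stays above the other genes on each day (85.2, 97.4 and 93.4), Grem1 is at 15.5 at day 28, and Fstl3 has no such region and is not drawn. The day 9 point of Chrd (a peak centred by Thpo) and the day 9 and day 28 points of Grem1 (peaks in the intron) are peaks that do not reach the gene's promoter themselves. The day 0 and day 9 points of Nog and the day 9 point of Fstl1 are peaks that overlap the promoter but do not cover the start site.

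Of the 63 merged regions, 17 had a peak at all 3 days (27.0%, 95% binomial interval 16.6% to 39.7%), against 27.4% of all merged regions. Each of the 8 genes held at least 1 of them. A further 14 regions were occupied at days 9 and 28 (22.2%, against 21.15% of all regions), and 25 at day 9 only (39.7%, against 34.5%). The other patterns were less frequent, both here and among all regions. There were 3 regions of day 0 only (4.76%, against 5.60% of all regions) and 2 of days 0 and 28 (3.17%, against 2.06%). A further 2 were of day 28 only (3.17%, against 7.59%), and none of days 0 and 9 (1.69% of all regions). The interval covers counting error only. The day 9 only regions came from 7 of the 8 genes, all but Fst, and Fstl3 and Twsg1 held 15 of them together.

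Regions of all 3 days ranked higher than the rest of the members' regions. The median percentile of their highest peak was 71.2 on day 0, 84.9 on day 9 and 74.6 on day 28 (17 regions). It was 28.4 in the 5 other regions of day 0, 30.4 in the 39 of day 9 and 46.4 in the 18 of day 28. The ranges overlapped, from 11.1 to 96.2 against 9.51 to 79.2 at day 0 and from 25.3 to 97.4 against 0.457 to 92.8 at day 9. A region of all 3 days has to pass the peak threshold in every list, so the group itself favours strong peaks. The same medians were not computed for all merged regions. Of the 17 regions, 11 had a peak of any day or height centred within 1000 bp of a start site. Of all 63 regions, these 17 included, 20 had such a peak. The share among all merged regions of 3 days was not computed, so this is not shown to be particular to the members.

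**Figure D4:**
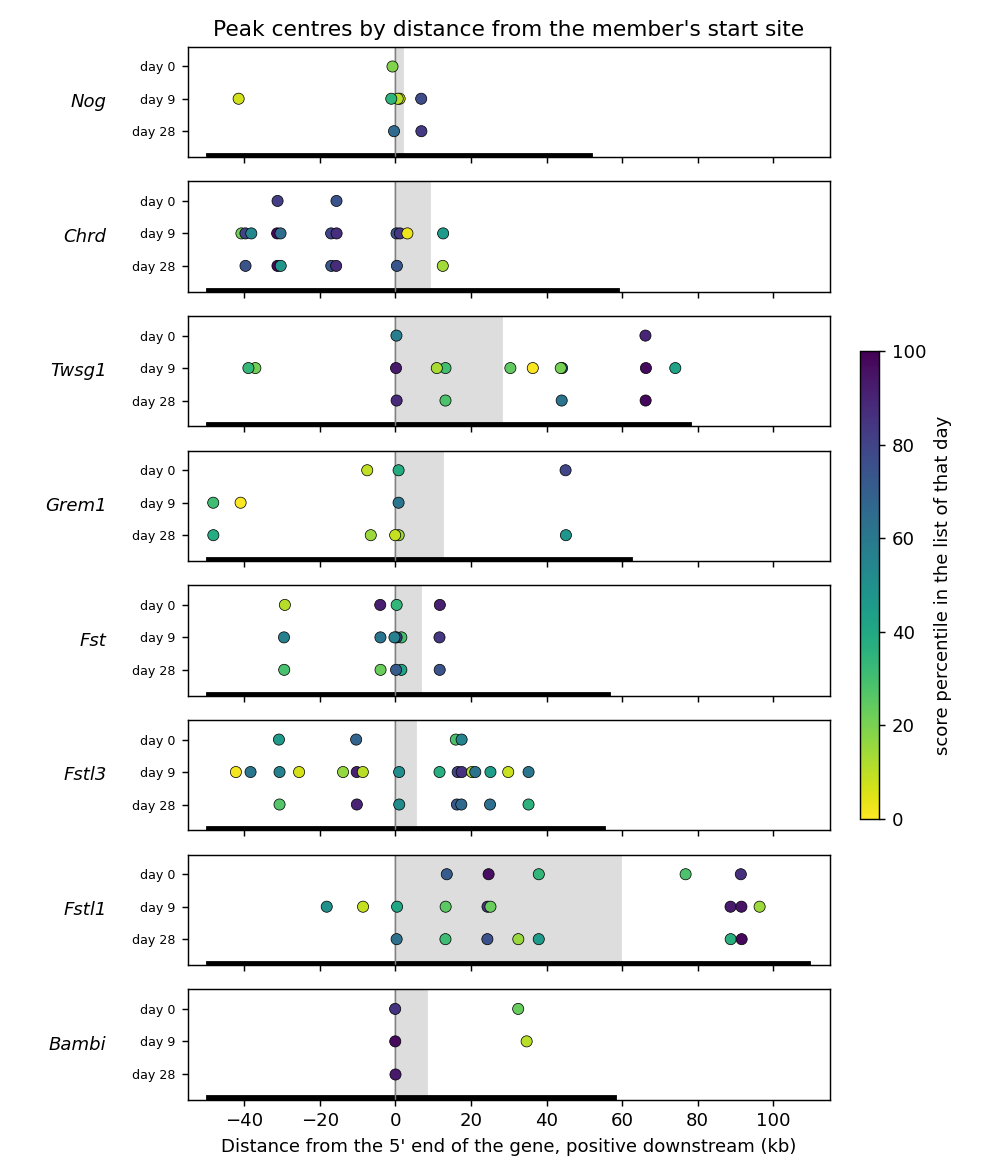
Each point is the centre of a peak by its distance in kb from the start of the gene (positive downstream), in 3 rows for day 0, day 9 and day 28, and its colour is the score percentile within that day's list. Grey spans mark the gene body and black lines the window of 50 kb on either side. Dark points stack over the start site of Bambi and lie on either side of Fst at day 0, and at several of the other genes dark points lie far from the start site.

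Distance placed many of these peaks at other genes. By the centre of the highest peak, 7 regions lay within 1 kb of the member's start site, 10 from 1 to 10 kb away, 19 from 10 to 30 kb and 27 farther. For 29 regions the nearest protein-coding start site was the member's, and for 34 it was that of another gene. At Nog, Fst and Bambi every region was nearest to the member, and at Chrd none was. The share of peaks nearest to the member was 56.5% on day 0 (13 of 23), 44.4% on day 9 (28 of 63) and 52.6% on day 28 (20 of 38). At Chrd and Fstl3 the numbers of peaks therefore count mainly peaks beside neighbours, and whether any peak acts on the member was not measured.

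**Figure D5:**
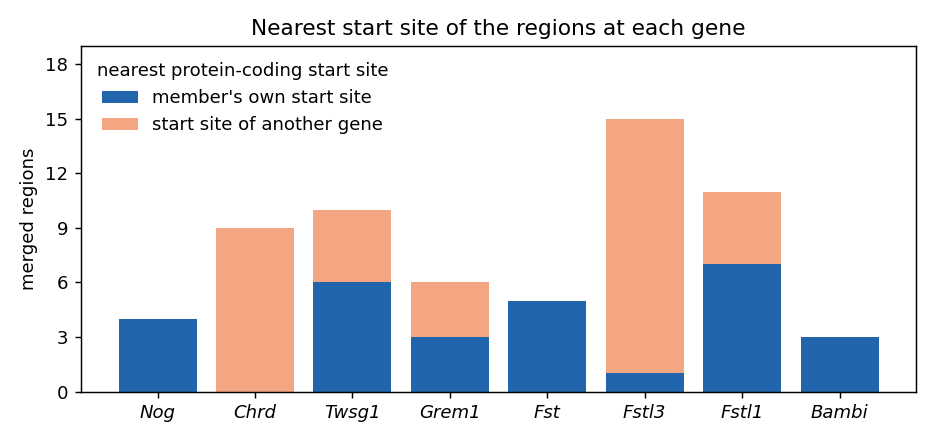
Bars count the merged regions in the window of each gene, split by whether the nearest protein-coding start site is the gene's own (dark) or that of another gene (light). The 9 regions at Chrd and 14 of the 15 at Fstl3 are nearest to another gene, and all regions at Nog, Fst and Bambi are nearest to the gene itself.

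By annotation at the centre, exons held 4 of 23 peaks on day 0, 16 of 63 on day 9 and 7 of 38 on day 28. Introns held 8, 26 and 16 peaks, and 11, 21 and 15 were intergenic. The shares of all peaks of the lists by this annotation were not computed. Within 1000 bp of any start site lay 43.5% of the members' peaks on day 0, 34.9% on day 9 and 44.7% on day 28. In the whole lists these shares were 35.7%, 21.1% and 27.5%. The members' peaks were taken within 50 kb of protein-coding genes, and the windows of Chrd and Fstl3 hold start sites of several neighbours. The whole lists have no such limit, so these shares are of unlike sets. The median GC content of the members' peaks near start sites was 61.8% on day 0, 63.5% on day 9 and 64.2% on day 28. That of the farther peaks was 47.1%, 51.2% and 50.1%. The whole lists had medians of 59.8%, 62.0% and 60.4% near start sites and 48.5%, 51.5% and 49.8% farther away.

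The core TGTGGT, looked for on either strand in the 101 bases at the peak centre (50 bp to each side), was found in 2 of 23 peaks at day 0 (8.70%, 95% interval 1.07% to 28.0%). It was found in 9 of 63 at day 9 (14.3%, 6.75% to 25.4%) and in 8 of 38 at day 28 (21.1%, 9.55% to 37.3%). The share in all peaks of the list was 16.0% on day 0, 25.3% on day 9 and 20.9% on day 28. Windows of the same length 450 to 550 bp from the members' centres held it in 6.52%, 4.76% and 7.89% of cases. At day 0 the members' share is therefore not distinguishable from its flanks at this number of peaks, and the day 9 interval reached to just above the share of its list.

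At the members the core was found at peak centres mainly away from start sites. Near a start site it was at the centre of 1 of 10 peaks on day 0, 0 of 22 on day 9 (interval 0% to 15.4%) and 0 of 17 on day 28 (0% to 19.5%). In the lists the shares near start sites were 4.80%, 6.69% and 5.34%. Among farther peaks it was at the centre of 1 of 13 on day 0, 9 of 41 on day 9 (22.0%, 10.6% to 37.6%) and 8 of 21 on day 28 (38.1%, 18.1% to 61.6%). The lists had 22.2%, 30.3% and 26.8% there, all within the members' intervals. None of the start-site windows of Nog, Grem1, Chrd, Fst, Bambi, Fstl1 and Twsg1 held TGTGGT within 50 bp of the centre on any day. The start-site peaks of Bambi and Twsg1 held 1 copy elsewhere in their length on each day, and the day 0 peak of Grem1 held 2.

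The same windows were applied to 37 other genes of the pathway, a list chosen with earlier results of these data known. They had a median of 2 peaks on day 0, 7 on day 9 and 4 on day 28, near the members' medians of 2.5, 7.5 and 5. Per 100 kb of window the medians of the 37 genes were lower than those of the members. They were 1.56, 3.63 and 3.23, against 2.26, 5.63 and 4.42. The 9 ligand genes had medians of 2, 3 and 2, and none of them had a promoter peak at day 0 and 2 had it at days 9 and 28, namely Bmp8a and Gdf6. Bmp2 and Bmp3 had no peak on any day, Gdf6 had none at day 0 and Bmp5 none at day 28. The 7 receptor genes had medians of 3, 7 and 5. The 6 Smad genes had medians of 2.5, 9.5 and 5, and all 6 had a promoter peak at all 3 days.

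Smad6 and Smad7 encode the inhibitory Smads, which block the pathway inside the cell. Smad6 had 14 peaks on day 0, 30 on day 9 and 24 on day 28, and Smad7 had 13, 21 and 16. Both exceeded every one of the 8 antagonist genes on each day. Dand5, a DAN family antagonist gene, had 14, 24 and 20 peaks. The 4 Id genes, targets of BMP signalling, had medians of 6.5, 11 and 8 and a promoter peak throughout. The 11 further antagonist genes had medians of 2, 7 and 4, and 4 of them had a promoter peak at day 0 and 5 at days 9 and 28. Per 100 kb of window the medians of these 11 genes were 1.81, 3.19 and 1.60. Among them Sostdc1 had a single peak, at day 9, and Fstl5 a single peak, at day 0.

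For each member the most similar of the 37 genes was taken by the Euclidean distance between peaks per 100 kb over the 3 days. Bambi was nearest to Acvr2a (distance 0.398), Nog to Bmp7 (0.863), Fstl1 to Id4 (0.931) and Fst to Id2 (1.08). Grem1 was nearest to Chrdl1 (1.15), Twsg1 to Sost (1.22) and Chrd to Nbl1 (1.25). Fstl3, with 15.2 peaks per 100 kb at day 9, had the most distant partner, Bmp8a (3.61), which had 13.

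At the edge of the windows, the farthest peaks inside were those of Grem1 at 48.0 kb (day 9) and 47.9 kb (day 28) from the gene and that of Twsg1 at 45.7 kb (day 9), with scores of 163.2, 234.6 and 213.7. The nearest peaks outside lay at 50.8 kb from Fstl3 (day 9), 52.4 kb from Twsg1 (day 28) and 54.6 kb from Chrd (day 28), with scores of 104.6, 121.6 and 531.5.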

How the data were processed

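Runx2 ChIP-Seq peaks of MC3T3-E1 cells at days 0, 9 and 28 were analysed. The authors mapped reads to mm9 with Bowtie (version 0.12.8) after base calling with CASAVA (version 1.6), pooled 2 libraries per day and called peaks with MACS (version 1.4.1) against day 9 input at a p-value threshold of 1e-10. The deposited score is 10 times the negative log10 of that p-value, with a lowest value of 100. Signal tracks and input were not analysed here.

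Starts were converted to count from 1. Genes, start sites and annotation came from the protein-coding transcripts of GENCODE M1 (NCBIM37), and sequence from the same assembly. Percentiles are mid-ranks within a list. Peak centres replaced summits, which the lists used here do not give. Peaks sharing at least 1 bp were merged. Shares have exact (Clopper-Pearson) 95% intervals. Nearest start sites, overlaps and merging were tested on simulated data. The tools were Matplotlib 3.10.9, SciPy 1.17.1, NumPy 2.4.6 and Python 3.11.15.

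The members and gene lists were chosen with earlier results of these data known. Named for each gene were the region of highest percentile, that over its start site, those of all 3 days nearest to it, and neighbours at these regions, except the highest region of Twsg1, which is not reported here, with further regions named after their values were seen. Pathway genes were named where a list had no peak for them, or for most day 9 peaks. Repeats, defined as at least 40 of the central 101 bases in runs of 3 or more CA or TG units, were examined after seeing the data. Alternatives covered the threshold, window, merging, promoter, list length, motif and repeats.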

Additional observations from a re-analysis of the deposited data

How the results depend on the processing

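Of 69 alternative values for the counts and shares described, 34 stayed within 1.5 times the count given or within the interval of the share, and 35 moved. Requiring a p-value of 1e-20 gave 15 peaks at day 0 and 35 at day 9, 37 regions, 10 of them of all 3 days, and 3 genes with a promoter peak at day 0. At 1e-50 there were 9, 19 and 19 peaks at days 0, 9 and 28, 22 regions, 7 of them of all 3 days, 1 gene with a promoter peak at day 0, and TGTGGT in 5.26% of day 28 peaks. Windows of 10 kb gave 13, 29 and 21 peaks, 30 regions and 11 of all 3 days, windows of 20 kb gave 40 day 9 peaks and 39 regions, and windows of 100 kb gave 41, 106 and 71 peaks, 114 regions and 33 of all 3 days. Peaks nearest to the member's own start site numbered 13, 28 and 20, in 30 regions, 10 of them of all 3 days. With lists of equal length there were 25 day 9 peaks, 36 regions and 11 of all 3 days, which removes the longer day 9 list by construction. With the peak centre inside the promoter, 2, 3 and 4 genes had a promoter peak at days 0, 9 and 28. Leaving out the repeat peaks, an alternative added after seeing the data, gave 60 day 9 and 37 day 28 peaks and TGTGGT shares of 13.3% and 18.9%. Day 0 had the fewest peaks in 7 of 7 settings and day 9 the most in 5 of 7, the exceptions being 1e-50 and lists of equal length. Of the values of single genes and regions, 94 of 177 moved. Day 9 had most peaks at 6 genes in the lists as deposited and at 2 with lists of equal length, and the start-site regions that stood highest at day 9 numbered 4 by percentile and 2 by rank from the top, a measure added after seeing the data. No paired analysis was possible because the replicates of each day were pooled into 1 list. The peak lists do not give the read depth, so a missing peak may be a weak one.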

Other observations

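Repeats of CA and TG were unevenly spread over the lists. At the 8 genes, such repeats filled the centres of 3 of 63 day 9 peaks, at Nog, Fstl1 and Grem1, of 1 of 38 day 28 peaks, at Fstl1, and of 0 of 23 day 0 peaks. In the whole lists they were at the centre of 0.236% of peaks on day 0, 7.18% on day 9 and 0.793% on day 28. Among all merged regions with a day 9 peak, 3930 of the 23329 seen at day 9 only (16.8%) had such a repeat, against 1.98% of regions of days 9 and 28 and 0.630% of regions of all 3 days. The median percentile of the repeat peaks was 37.1 at day 9. Without them, TGTGGT was at the centre of 24.3% of all day 9 peaks instead of 25.3%. The part of the repeats in the length of the day 9 list was not tested.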
